A study of Mus musculus with 18 samples.

Results

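Of 24369 genes measured by RNA-seq in mouse embryonic stem cells (mESCs), 133 were chosen by their time-course levels as genes switched on late, at day 3 of differentiation. The values that chose them were TPM (a level per transcript length, scaled so that every library has the same total) in the 12 libraries of the time course. A gene had to have a day 3 mean of at least 5 TPM and at least 2 times the mean of each of days 0, 1 and 2, and its lowest day 3 library had to exceed every library of the other days. The time-course libraries, 3 for each of days 0, 1, 2 and 3, came from E14 mESCs of the genotype Rex1GFPd2-Cas9. The other 6 libraries came from sorted GFP+ cells, 2 each of wild-type (Rex1GFPd2-Cas9), *Nprl2* KO (Rex1GFPd2-Cas9 Nprl2-/-) and *Tsc2* KO (Rex1GFPd2-Cas9 Tsc2-/-) mESCs. All groups thus carried the destabilized GFP reporter at *Rex1* and Cas9 at the *Rosa26* locus. The KO lines were made by deleting a critical exon and growing picked colonies, and whether the libraries of a KO line represent 1 clone or several is not given in the sources used here. How the time-course cells were cultured at day 0, and whether they were sorted, is also not given there, so levels in GFP+ cells and in the time course are set side by side without a test.

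Mouse ESCs in the naive state resemble the early epiblast, and on withdrawal of the signals that maintain them they pass through a formative state before they enter lineages. *Rex1* (also known as *Zfp42*) marks the naive state, and sorting for its GFP reporter collects cells that still express it. Nprl2 is a subunit of Gator1 and Tsc2 a subunit of the tuberous sclerosis complex, and both hold down the growth kinase complex mTORC1 by separate routes. Late in the first days of differentiation, cells flatten and spread, and genes of the actin cytoskeleton, of simple epithelia and of the extracellular matrix are among those known to respond to such a change of shape and adhesion.

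The module ranged from a cytoplasmic actin among the abundant transcripts of the cell to genes barely over the limit. At day 3 the mean level of its members ran from 5.07 TPM for *Endod1* to 3362 TPM for *Actg1*, with a median of 12.7 TPM. The median was 1.54 TPM at day 0, 1.19 TPM at day 1 and 4.82 TPM at day 2. Among the members, 57 had a mean under 1 TPM at day 0 and 58 at day 1, but 1 at day 2. Day 3 exceeded the highest earlier day by a median ratio of 2.42, and 29 members had a ratio of 3 or more. The largest ratios belonged to *Fosb* (12.9), *Ltb* (12), *Slc39a8* (7.61), *Penk* (6.78), *Krt8* (5.92) and *Krt19* (5.16). These ratios were used by the rule and are a description. Just inside the limit of 2 were *Cpe* (2.0059), *Chrnb1* (2.0098) and *Gap43* (2.0104), and just outside it were *Nes* (1.9874), *Mir7005* (1.985) and *Cables1* (1.9845). By level, the members nearest the limit were *Endod1* (5.0678 TPM), *Irs1* (5.1239 TPM) and *Casp8* (5.2719 TPM), and the genes next below it were *Cxx1c* (4.9207 TPM), *Sez6* (4.74 TPM) and *Vstm2l* (4.7384 TPM). Of 10229 genes with the day 3 level, 140 had the ratio, and *Cxcl10*, *Fam219aos*, *Mir3072*, *Mir6948*, *Mir7115*, *Nkx1-2* and *Sox1* were then dropped because their libraries overlapped.

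**Figure D1:**
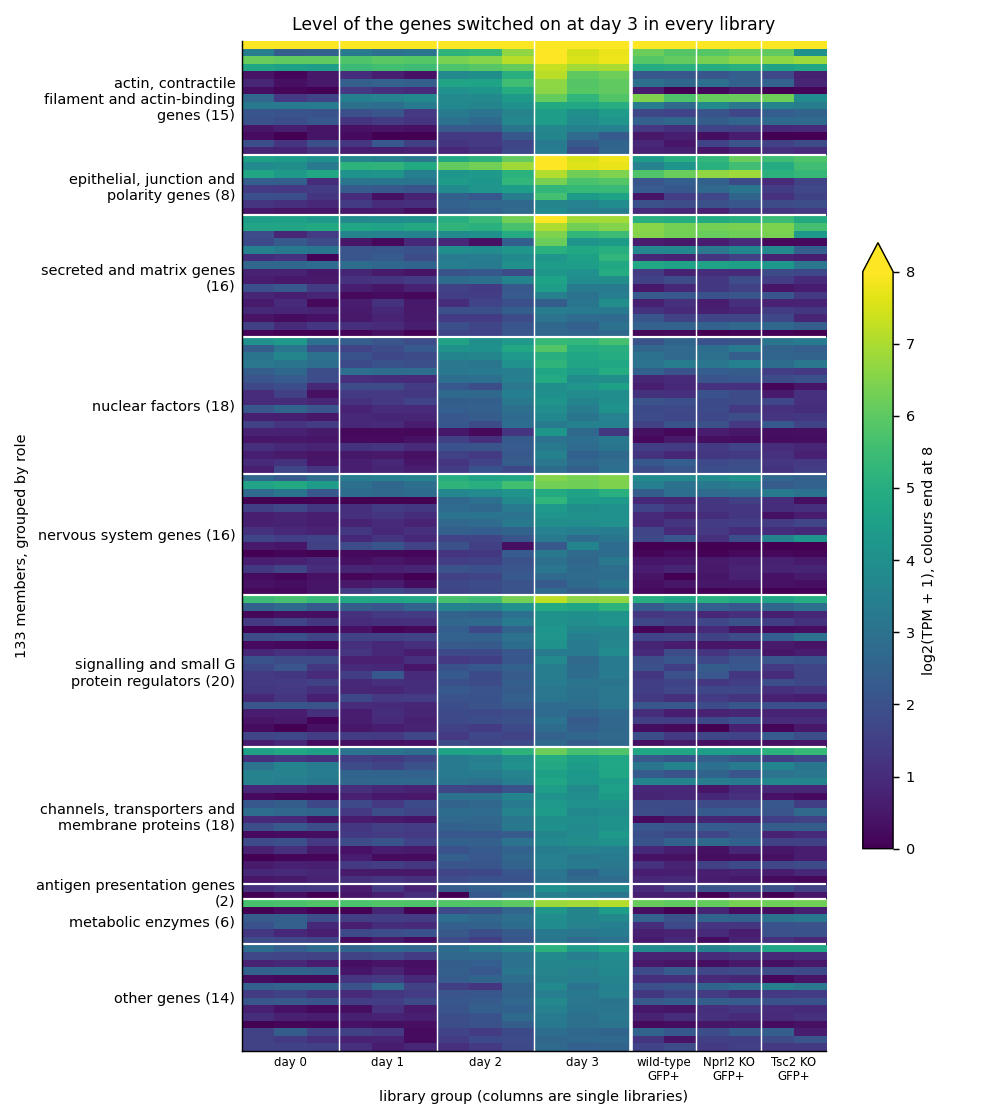
Level of each of the 133 members (rows, grouped by role) in each of the 18 libraries (columns), as log2(TPM + 1), with colours ending at 8 so that brighter levels are not told apart. The day 3 columns are the brightest of the time course in every role group, the column of day 2 replicate 3 is brighter than its neighbours, and the GFP+ columns are darker than day 3 in most rows.

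The way to day 3 was not uniform. The highest earlier mean fell on day 2 for 121 members, on day 0 for 11 (among them *Ltb*, *Pdgfb* and *Casp8*) and on day 1 for *Fabp7* alone. Means increased at every step for 55 members, while the lowest mean was at day 1 for 74. Both counts take any difference of means, however small, and have no share over all genes beside them. All day 2 libraries lay above all day 1 libraries for 120 members, which compares with 41.4% of the 11092 genes that reached 5 TPM on any day. All day 2 libraries lay above all day 0 libraries for 100 members (background 36.7%). All day 1 libraries lay above those of day 0 for 36 members (background 32.1%) and below them for 46 (background 39.4%). The rule used the levels of all these days, so the counts describe the members and nothing is read from the background. Most of the 133 genes were therefore already higher at day 2 than at day 1, and day 3 was where they passed the limits of the rule.

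Library depth was between 12503005 and 15305054 estimated counts in the time course and between 8610357 and 13780861 in GFP+ cells. Naive ES cell markers (6 genes) summed to 2354 to 2498 TPM at day 0 and 118 to 187 TPM at day 3, formative epiblast markers (4 genes) to 103 to 129 and 1209 to 1496 TPM, and general pluripotency markers (4 genes) still to 1736 to 2082 TPM at day 3. In GFP+ cells the naive markers summed to 1150 and 1184 TPM in wild-type, 823 and 812 TPM in *Nprl2* KO and 2107 and 2190 TPM in *Tsc2* KO. The formative markers summed to 462 and 386, 624 and 532, and 115 and 110 TPM in the same order, so that the *Tsc2* KO libraries lay nearest to day 0 in both. Markers of blood, primitive streak, endoderm and trophoblast summed to at most 10.7 TPM in any library, and neural progenitor markers reached 94.1 to 115 TPM at day 3, of which *Nes* (mean 92.7 TPM) made up most. Of the neuron markers, *Tubb3* and *Stmn2* were already high at day 0 (means of 112 and 272 TPM), *Dcx* stayed under 1 TPM, and *Elavl3* had means of 1.58, 1.18, 8.09 and 9.06 TPM at days 0, 1, 2 and 3. Fibroblast markers (*Col1a1*, *Col1a2*, *Col3a1*, *Dcn*, *Thy1*) summed to 7.75 to 14.9 TPM at day 0 and 32.5 to 41.3 TPM at day 3, where *Thy1* alone had a mean of 30.1 TPM. In GFP+ cells they summed to 98.5 to 136 TPM in wild-type, 104 to 108 TPM in *Nprl2* KO, and 124 and 34.1 TPM in the first and second library of *Tsc2* KO, and none of the 5 was at 0 as a mean in any of these groups. In GFP+ cells the targeted genes were lower in their own KO (*Nprl2*, 8.09 and 8.65 TPM against 16.1 and 17 TPM in wild-type; *Tsc2*, 18.8 and 20.3 TPM against 45 and 44.9 TPM).

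The libraries of a day were not alike for these genes. Replicate 3 of day 2 was the highest day 2 library for 125 of the 133 members (94%), where 44.2% of the 10138 genes with a time-course mean of at least 5 TPM had it highest. At day 3, replicate 1 was the highest for 87 members (65.4%, against 30.7% of those genes) and replicate 2 the lowest for 101 (75.9%, against 37.7%). The median member level was 4.12, 4.26 and 6.13 TPM in the day 2 libraries and 14, 11.1 and 13.5 TPM in the day 3 libraries. Naive ES cell markers summed to 63.6, 62.9 and 73.8 TPM, and neural progenitor markers to 41.6, 44.7 and 65.6 TPM, in the same order of day 2 libraries. Their part in the order of the libraries was not tested. The relative SD of a member at day 3 had a median of 17.6% and ran from 2.99% to 103%.

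**Figure D2:**
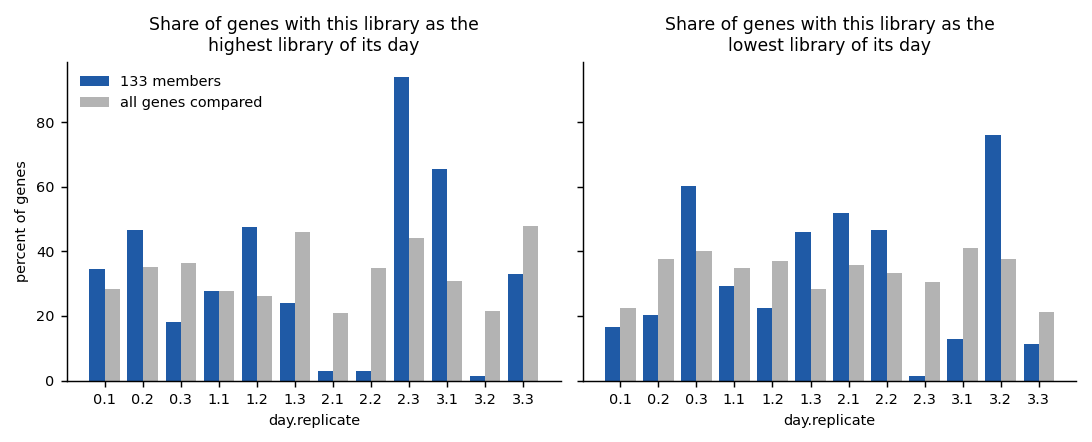
Percent of the 133 members (blue) and of the 10138 genes with a time-course mean of at least 5 TPM (grey) for which a library was the highest (left) or lowest (right) of its day. Replicate 3 of day 2 was the highest of its day for 94% of the members and replicate 2 of day 3 the lowest for 75.9%.

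Genes of actin, contractile filaments and actin binding made up 15 members, with a day 3 median of 53.9 TPM, the highest of the role groups. *Actg1*, the gamma cytoplasmic actin, stood at 875, 849 and 848 TPM at day 0, 1190, 1060 and 1297 TPM at day 2 and 3885, 3055 and 3146 TPM at day 3. *Tagln*, which encodes the actin-binding protein transgelin of smooth muscle, was at 9.69, 4.32 and 4.63 TPM at day 0, 35.9, 39.5 and 101 TPM at day 2 and 349, 179 and 218 TPM at day 3. Replicate 3 of day 2 thus lay between the other day 2 libraries and day 3. The muscle actins joined at lower levels: *Acta1*, skeletal muscle actin, averaged 0.283 TPM at day 0 and had 12.6, 14.8 and 31.4 TPM at day 2 and 144, 63.9 and 75 TPM at day 3. *Actc1*, cardiac muscle actin, went from 0.239, 0.0966 and 0 TPM at day 0 to 15.7, 18 and 29.8 TPM at day 2 and 96, 59.2 and 65.6 TPM at day 3. *Acta2*, smooth muscle actin, had 5.21, 1.51 and 2.13, then 12.6, 12.5 and 19.4 and at last 68.4, 37.6 and 55.6 TPM on the same days. In all 5 genes replicate 1 was the highest day 3 library and replicate 2 the lowest. *Cnn1* (calponin, an inhibitor of the actin-myosin motor) reached 73.9 ± 22.4 TPM (SD, n = 3), the LIM domain gene *Csrp1* 224 ± 40 TPM and the actin-bundling plastin *Pls3* 133 ± 19.3 TPM. The sarcomere genes *Myl3* (a myosin light chain) and *Tnnc1* (troponin C) stayed low, with day 3 libraries at 11.9, 5.94 and 3.81 TPM and 8.63, 3.82 and 4.96 TPM. The remaining members of the group, *Parva*, *Coro2a*, *Synpo2l*, *Sorbs3* and *Obsl1*, had day 3 means between 5.71 and 28.2 TPM. Reads of the actin genes can be shared where their coding sequences are alike, and the division of such reads among genes by the authors' counting is uncertain.

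Promoters of actin genes are shown because several members of this group share a motif there. Of the 133 members, 96 matched the RefSeq promoter table (build GRCm38.p6), in which a window holds 250 bases before and 50 bases from the start of a gene. The CArG box, the core sequence known to bind serum response factor and searched on both strands, was chosen after the values were seen. It lay in the windows of 5 of the 96 members (5.21%), against 1.57% of the first-listed windows of all 27025 genes of the table and 1.35% of those of 7827 genes with a day 3 mean of at least 5 TPM. Among these 5, *Actg1*, *Acta1*, *Actc1* and *Myl3* belong to the actin and contractile group, which had 12 members in the table, and *Tmem63a* encodes a mechanically gated ion channel. The windows are written 5′ to 3′ on the strand of the gene, with the box in capitals. They lie at chr11:120348446-120348745 (*Actg1*, minus strand), chr8:123894726-123895025 (*Acta1*, minus), chr2:114052826-114053125 (*Actc1*, minus), chr9:110763428-110763727 (*Myl3*, plus) and chr1:180942268-180942567 (*Tmem63a*, plus).
Actg1: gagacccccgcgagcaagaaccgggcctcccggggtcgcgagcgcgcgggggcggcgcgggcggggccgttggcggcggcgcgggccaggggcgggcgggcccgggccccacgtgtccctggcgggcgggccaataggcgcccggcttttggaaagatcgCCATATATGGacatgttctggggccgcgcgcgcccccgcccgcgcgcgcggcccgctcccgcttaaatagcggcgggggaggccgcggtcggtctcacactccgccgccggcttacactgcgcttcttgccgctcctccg
Acta1: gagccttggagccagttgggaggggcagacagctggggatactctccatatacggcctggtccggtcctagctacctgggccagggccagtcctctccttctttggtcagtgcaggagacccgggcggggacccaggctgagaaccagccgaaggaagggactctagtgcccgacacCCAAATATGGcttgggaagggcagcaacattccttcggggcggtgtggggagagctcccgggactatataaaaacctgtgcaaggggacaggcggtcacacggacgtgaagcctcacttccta
Actc1: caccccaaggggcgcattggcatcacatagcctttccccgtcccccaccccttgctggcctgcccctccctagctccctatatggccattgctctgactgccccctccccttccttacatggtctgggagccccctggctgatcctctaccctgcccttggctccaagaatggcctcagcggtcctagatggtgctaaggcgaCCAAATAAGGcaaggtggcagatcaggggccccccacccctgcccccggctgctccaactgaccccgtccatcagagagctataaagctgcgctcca
Myl3: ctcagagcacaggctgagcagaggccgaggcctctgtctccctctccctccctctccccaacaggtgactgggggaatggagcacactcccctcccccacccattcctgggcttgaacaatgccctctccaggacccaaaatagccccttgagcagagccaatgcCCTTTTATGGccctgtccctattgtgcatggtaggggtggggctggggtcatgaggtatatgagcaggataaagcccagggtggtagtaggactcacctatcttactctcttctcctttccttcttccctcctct
Tmem63a: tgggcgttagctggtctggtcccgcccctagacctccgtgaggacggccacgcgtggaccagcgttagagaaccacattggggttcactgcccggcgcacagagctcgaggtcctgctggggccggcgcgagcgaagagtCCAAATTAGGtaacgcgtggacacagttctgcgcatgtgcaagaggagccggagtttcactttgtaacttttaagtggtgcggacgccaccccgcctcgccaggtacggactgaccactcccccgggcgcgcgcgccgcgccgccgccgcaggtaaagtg
The box began 90 bases before the start in *Actg1*, 73 in *Acta1*, 47 in *Actc1*, 85 in *Myl3* and 110 in *Tmem63a*. A match of letters is a description and does not show that a factor binds there.

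The other motifs searched were, like these, a description of letters on both strands. The E-box CAGCTG lay in 21.9% of member windows, 16.1% of all windows and 13.6% of those of day 3 expressed genes, and CAGATG in 11.5%, 17.2% and 10.3%. The GC box GGGCGG was in 63.5%, 35.9% and 69.2%, and the TATA box TATAAA in 7.29%, 14.2% and 5.92%, so that in both the members stood nearer to other expressed genes than to the whole table. TCAAAG, the core of Tcf/Lef sites, was in 6.25% of member windows against 16.2% and 11.1%. CCTTTGAT, a longer form that can overlap it, was in 2 members (2.08%) against 1.05% and 0.626%. TGGGAA (Rbpj core) was in 20.8%, 25.5% and 22.2%, AGGTCA (nuclear receptor core) in 11.5%, 16% and 11.2%. The octamer ATGCAAAT, the Sox motif ACAATGG and the Hox/Pbx motif TGATTGA each lay in 1 member window (1.04%), against 1.75%, 3.71% and 2.68% of all windows. In windows of day 3 expressed genes their shares were 1.32%, 1.79% and 1.83%. Added after the values were seen, the Tead motif GGAATG was in 17.7% of member windows against 14.6% and 11.7%, and the AP-1 motif TGANTCA in 1.04% against 7.93% and 4.1%. The observed over expected ratio of CpG, a measure of how far CpG dinucleotides have been kept, had a median of 0.593 over member windows, 0.389 over all windows and 0.799 over the day 3 expressed genes. At 0.6 or more were 49% of the members and 79.4% of the expressed genes.

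Epithelial, junction and polarity genes formed a group of 8 with a day 3 median as high as that of the actin genes (51.2 and 53.9 TPM). *Krt8* and *Krt18*, which encode the keratin pair of simple epithelia, lie next to each other on chromosome 15 with starts 31505 bases apart. *Krt8* had 22.6, 19.6 and 15.3 TPM at day 0, 11.6, 10.4 and 8.04 TPM at day 1, 26.2, 34.1 and 66 TPM at day 2 and 339.5, 183 and 225 TPM at day 3. *Krt18* had 13.5, 14.4 and 8.68 TPM at day 0, 35.3, 35.5 and 28.1 TPM at day 1, 66.3, 77.1 and 115 TPM at day 2 and 329, 195 and 210 TPM at day 3. The pair thus ended at near equal levels, but *Krt18* was above day 0 from day 1 on and *Krt8* dipped first, with all day 1 libraries below day 0. *Krt19*, another simple epithelial keratin, reached 47.3, 19.6 and 24.2 TPM from 4.62, 3.6 and 9.44 TPM at day 2. *Sfn*, the epithelial 14-3-3 sigma protein, had 17.6, 19.3 and 33.7 TPM at day 2, overlapping day 0 (25.5, 18.7 and 26.3 TPM), and 134, 75.3 and 86.5 TPM at day 3. The tight junction claudin *Cldn3* reached 63.1 ± 16.4 TPM (SD, n = 3) and the planar cell polarity gene *Prickle1* 39.4 ± 1.8 TPM, whose 3 libraries agreed closely. The desmosomal cadherin *Dsc2* and *Amot*, an angiomotin of cell junctions, had means of 10.9 and 12 TPM.

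**Figure D3:**
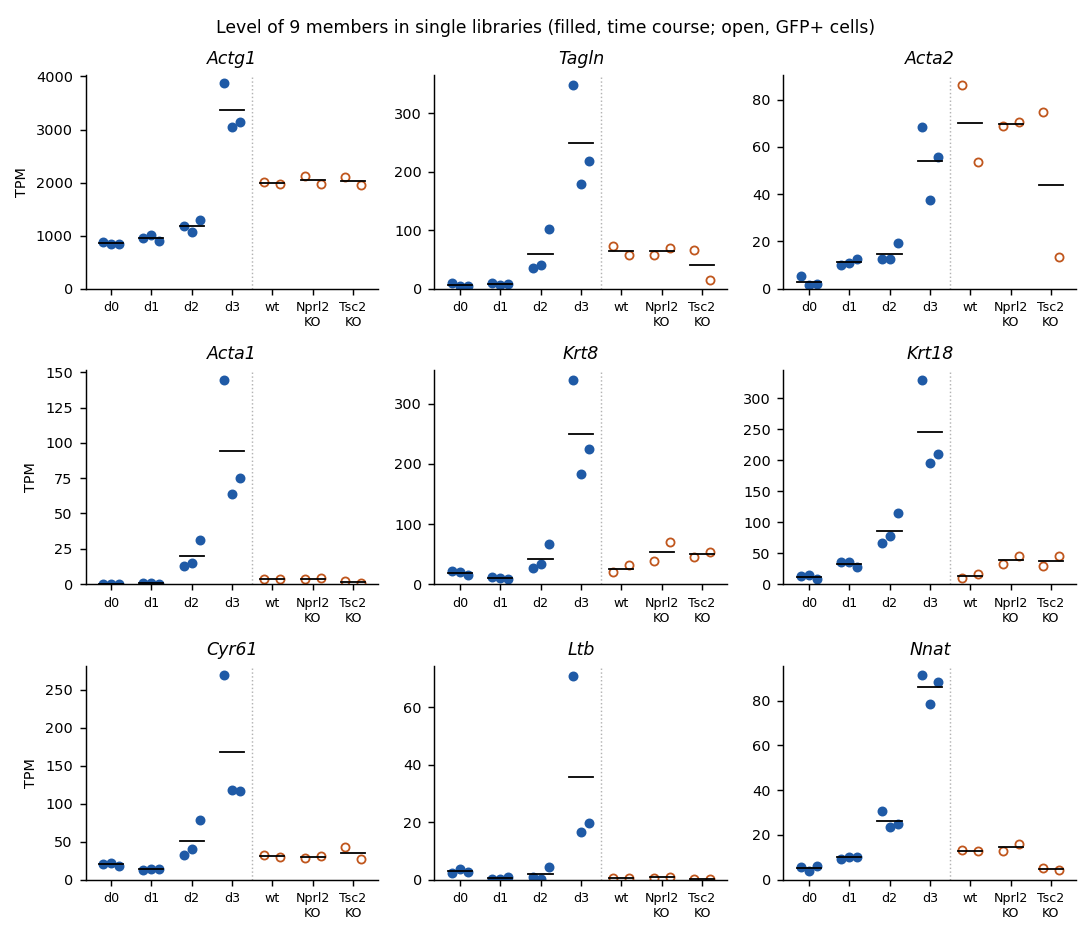
Level in TPM (linear axes from 0) of 9 members in single libraries, with days 0 to 3 as filled points, GFP+ cells of each genotype as open points and the mean as a bar. All 3 day 3 libraries lie above every earlier library, as the rule requires, and in wild-type GFP+ cells *Acta2* overlaps its day 3 range while *Acta1* and *Ltb* are near 0.

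Secreted and matrix genes numbered 16. *Cyr61* and *Ctgf* encode matricellular proteins of the CCN family and are known for their response to cell spreading. *Cyr61* was at 20.9, 22.3 and 18.1 TPM at day 0, 32.1, 40.6 and 78.1 TPM at day 2 and 269, 118 and 117 TPM at day 3, so that 1 library carried much of its mean. *Ctgf* had a smaller ratio, with 24.4, 24.5 and 27.9 TPM at day 0 and 36.2, 32.5 and 49.8 TPM at day 2, then 128, 77.5 and 89.8 TPM at day 3. *Thbs1*, an adhesive matrix glycoprotein, had 13.2, 15.2 and 29.4 TPM at day 2 and 86.9, 38.3 and 44.2 TPM at day 3, again highest in replicate 1. The proteases *Mmp14*, *Adamts1* and *Bmp1* had day 3 means of 22.9, 6.39 and 5.64 TPM. Among signalling ligands, *Ltb* (lymphotoxin beta, of the tumour necrosis factor family) had 2.46, 3.85 and 2.63 TPM at day 0, 0.394, 0.134 and 0.884 TPM at day 1, 0.91, 0.29 and 4.28 TPM at day 2 and 70.8, 16.7 and 19.6 TPM at day 3. Replicate 1 thus stood far above the other day 3 libraries, and the lowest of those was still well above every earlier library. *Penk*, the precursor of the enkephalin peptides, had 3.17, 3.58 and 2.63 TPM at day 2 and 17.8, 15.6 and 30.1 TPM at day 3, and here replicate 3 was the highest. *Pdgfb*, a platelet-derived growth factor chain, reached 12.9 ± 7.23 TPM (SD, n = 3), *Fgf8* 8.79 ± 5.33 TPM and the axon guidance ligand *Sema3c* 17.4 ± 5.58 TPM. *Pkdcc* (a secreted protein kinase), *Cpe* (carboxypeptidase E), *Angptl2*, *Lipg* and *Fgf14* had means between 5.32 and 29.9 TPM.

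Nuclear factors made up 18 members, with basic leucine zipper genes that can form AP-1 among them. *Fosb*, with the largest ratio in the module, had 0.436, 0.152 and 1.32 TPM at day 2 and 17.6, 5.48 and 1.44 TPM at day 3. Most of its day 3 mean thus came from replicate 1, and its relative SD was the largest of all members. *Jun* had 15.7, 15.3 and 26.3 TPM at day 2 and 56.8, 30.2 and 31.3 TPM at day 3, *Atf3* 6.35, 6.61 and 10.2 and 28.6, 14.2 and 14.5 TPM, and *Fosl2* 1.98, 1.58 and 3.72 and 10.4, 4.61 and 5.31 TPM, all with replicate 1 on top at day 3. The NF-κB subunit *Nfkb2* and the calcium-regulated *Nfatc4* had day 3 means near each other (28.9 and 29.2 TPM). *Bhlhe40*, a repressor linked to the circadian clock, dipped to 4.31, 3.28 and 2.75 TPM at day 1 and stood at 40.4, 38.4 and 48.8 TPM at day 3. Homeodomain genes of patterning were present at modest levels: *Phox2a* had 15.3, 13.5 and 14.3 TPM at day 3, *Meis3* 8.82, 10.5 and 10.6 TPM and *Lmx1b* 8.09, 5.39 and 6.24 TPM. In *Phox2a* and *Meis3* the day 3 libraries were close to each other, unlike in the AP-1 genes. *Lmx1b* is adjacent to another member, *Mvb12b*, on chromosome 2, and *Angptl2* lies 3 genes away from it. *Hif3a*, a hypoxia-inducible factor subunit, reached 25.6 ± 4.41 TPM (SD, n = 3), and *Zfp362*, *Zfp629*, *Zhx2*, *Bend6*, *Tgfb1i1* and *Greb1l* had means between 5.67 and 14.2 TPM.

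Nervous system genes (16 members) had a day 3 median of 8.76 TPM. *Nnat*, an imprinted gene of neural development, had 5.54, 4 and 6.18 TPM at day 0, 30.6, 23.5 and 25 TPM at day 2 and 91.3, 78.7 and 88.5 TPM at day 3. *Msi1*, an RNA-binding protein of neural progenitors, dipped from 24.3, 27.9 and 20.6 TPM at day 0 to 6.68, 5.53 and 6.69 TPM at day 1 and ended at 78, 74 and 84.6 TPM. The day 3 libraries of both lay close together. *Stmn4*, a stathmin of neurons, was listed at 0 in all libraries of days 0 and 1, had 5.48, 6.53 and 12.8 TPM at day 2 and 37.6, 21.6 and 18.9 TPM at day 3. The growth cone gene *Gap43* reached 28.4 ± 4.88 TPM (SD, n = 3), *Dpysl2*, which guides axon growth, 16.3 ± 1.91 TPM, and *Nfasc*, an adhesion molecule of axons, 14.7 ± 0.876 TPM. *Stmn4* and *Dpysl2* lie 2 genes apart on chromosome 14, which held 13 members, the most of any chromosome. Chromosomes 1, 4 and 7 held 11 each, and these counts have no share over all genes beside them. The neurofilament gene *Nefm* had 8.73, 6 and 7.56 TPM at day 3, and *Fabp7*, a fatty acid binding protein of radial glia, 3.66, 11.2 and 5.94 TPM. *Stxbp6*, *Iglon5*, *Cplx2*, *St8sia2*, *Efna5*, *Shd*, *Dclk1* and *Gpm6a* had means between 5.29 and 16 TPM.

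Regulators of signalling and small G proteins (20 members) had a day 3 median of 8.15 TPM. *Rras*, a small GTPase, was the highest of them with 50.3, 44.3 and 79.2 TPM at day 2 and 151, 96 and 103 TPM at day 3. The calcitonin receptor gene *Calcr* had 0.132, 0.249 and 0.251 TPM at day 0, 4.82, 4.41 and 6.62 TPM at day 2 and 15.8, 15.1 and 16.4 TPM at day 3, with little spread. *Rgl3*, an effector of Ras-like proteins, went from a mean of 0.0204 TPM at day 0 to 17.5, 11.7 and 11.6 TPM at day 3. Others were the phosphatase gene *Dusp10*, the insulin receptor substrate *Irs1*, the adenylyl cyclase *Adcy6*, the caspase *Casp8* and *Rgs16*, a brake on G protein signals, with day 3 means of 12.7, 5.12, 7.83, 5.27 and 5.47 TPM.

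Channels, transporters and membrane proteins numbered 18. *Slc39a8*, an importer of zinc and manganese, had 2.18, 2.09 and 3.06 TPM at day 2 and 21, 12.9 and 21.8 TPM at day 3, a ratio larger than in all but 2 members. The potassium channel *Kcnj3* had 3.51, 3.5 and 3.88 TPM at day 2 and 11.8, 13.5 and 19 TPM at day 3, and *Cyba*, a subunit of the NADPH oxidase, 23.9, 23.6 and 35 and 73.1, 49.1 and 55.1 TPM. *Wls*, needed for Wnt secretion, and the volume-regulated anion channel gene *Lrrc8c* had means of 24.7 and 25.4 TPM. Among the 22 members that remain, 2 were class I antigen presentation genes of the H2 locus (*H2-T22* and *H2-Q6*, 12.9 and 8.91 TPM), and 6 were metabolic enzymes. Of the enzymes, *Cbr1* (a carbonyl reductase) had 56.1, 55.7 and 63.2 TPM at day 2 and 110.1, 117 and 138 TPM at day 3, and *Cda* (cytidine deaminase) went from a mean of 0.0596 TPM at day 0 to 17.9, 11.4 and 21.4 TPM at day 3. *Dhrs3*, which reduces retinal, had 8.47, 7.88 and 8.59 TPM at day 3. *Anxa3*, a calcium-dependent phospholipid-binding annexin, had 34.3, 18.7 and 25.4 TPM.

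**Figure D4:**
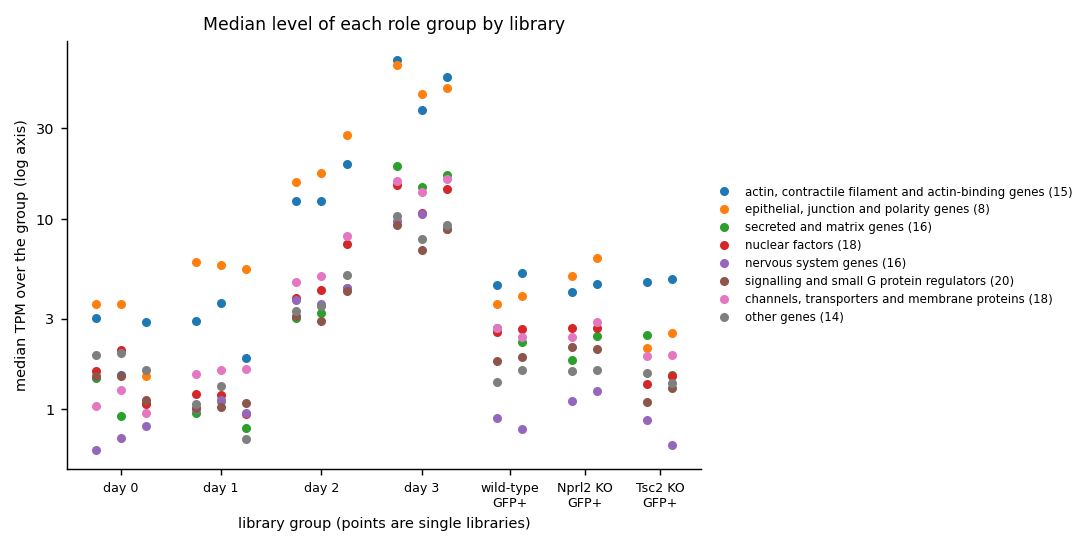
Median TPM (log axis) over the members of each role group with at least 8 members, in single libraries (points). The actin and epithelial groups reach 37.6 to 68.4 TPM at day 3, the other groups 6.91 to 19 TPM, and all groups are lower in GFP+ cells of every genotype.

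The module was also set against lists of genes drawn up for the tissue. Earlier results of these data were known when the lists were made, so the counts are a description. It took 9 of the 33 actin, contractile and intermediate filament genes that reached 5 TPM at day 3, 7 of 25 neuronal differentiation genes and 5 of 39 extracellular matrix genes (*Adamts1*, *Ctgf*, *Cyr61*, *Mmp14*, *Thbs1*), where 133 of 10229 genes at that level were members. Fgf and ERK genes gave 2 of 28 (*Fgf8*, *Jun*) and axon guidance genes 2 of 25 (*Efna5*, *Sema3c*). Neural progenitor transcription factors gave 1 of 16 (*Lmx1b*), and retinoid (*Dhrs3*), BMP and Nodal (*Bmp1*), adhesion (*Cldn3*), imprinted (*Nnat*) and stress response (*Atf3*) genes gave 1 each. No member came from the lists for the primitive streak, Hox genes, Notch, Wnt, hedgehog, p53, hypoxia, cholesterol synthesis, naive, formative or general pluripotency, primitive endoderm, trophoblast, fibroblast, blood or germline. Of the Hox and trophoblast lists, 0 genes reached 5 TPM at day 3, so they could give no member. Few did for blood (1), primitive streak (4), germline (4), fibroblast (6) and primitive endoderm (7). The rest had 10 (hedgehog, general), 13 (naive), 15 (Notch), 20 (Wnt), 23 (formative), 30 (p53), 31 (cholesterol) and 32 (hypoxia). Of the 133 members, 103 were in none of the lists.

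GFP+ wild-type cells, whose libraries had no part in choosing the members, had most of the module at a low level. Compared with day 0, both libraries lay above all 3 for 56 members and below all 3 for 23, where 31.3% and 31.7% of the 11092 genes that reached 5 TPM on any day did so. The median member was at 2.1 TPM there, and both libraries lay below all day 3 libraries for 128 members (background 42%). For none did both exceed all day 3 libraries (background 34.4%). The rule chose members that were low at day 0 and high at day 3, so nothing is read from these backgrounds. The 5 exceptions, whose libraries overlapped those of day 3, were *Acta2*, *Thbs1*, *Ctgf*, *Mmp14* and *Bmp1*. *Acta2* had 86.4 and 53.6 TPM in wild-type GFP+ cells, *Thbs1* 91 and 78 TPM, *Ctgf* 93.6 and 79.6 TPM and *Mmp14* 26.8 and 23.5 TPM. By contrast, *Tagln* (72.3 and 57 TPM) and *Actg1* (2013 and 1977 TPM) lay between days 0 and 3, and *Actc1* (0.533 and 0 TPM) and *Ltb* (0.512 and 0.443 TPM) stayed near 0. *Fabp7* was listed at 0 in all 6 GFP+ libraries. Beside these stand the fibroblast markers of the same libraries, with *Col1a1* at 70.7 and 52 TPM in wild-type GFP+ cells and a mean of 1.17 TPM at day 3. The study's routine culture was on feeder fibroblasts, and RNA of these libraries was taken after the sort for GFP. The part of feeder cells in these levels was not tested. Fewer cells of a type and less RNA per cell cannot be told apart in bulk libraries.

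Of the 133 members, 113 passed the low-count filter in GFP+ cells and were tested, with adjustment over all 13677 genes tested. The 20 that did not pass were *Actc1*, *Ltb*, *Stmn4*, *Cda*, *Rgl3*, *Mcoln3*, *H2-Q6*, *Fgf8*, *Sh3bgr*, *Zhx2*, *Myl3*, *Fabp7*, *Adssl1*, *St8sia2*, *Hrc*, *Shd*, *Tnnc1*, *Rrad*, *Fgf14* and *Gpm6a*, none of which is counted below. Log2 fold changes are from counts, with 2 libraries for each genotype and the wild-type libraries shared by both KO comparisons.

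In *Nprl2* KO cells 5 of 113 members were called higher and 0 lower, by edgeR at an adjusted p under 0.05. The background was 2.79% of genes higher and 3.66% lower. At an unadjusted p under 0.05, 18 members (15.9%) were higher and 1 (0.885%) lower, where 10.5% of all genes tested were higher and 11.3% lower. DESeq2 and limma each called 3 higher and 0 lower. Without the second *Nprl2* KO library 1 member was called higher, and without the first wild-type library 2. With each of the 6 libraries left out in turn, *Atf3* and *Sfn* were called in 5 fits, *Csrp1* in 4, *Prickle1* in 3 and *Slc7a8* in 2, so that none of the 5 calls held in every fit. The naive marker sums in *Nprl2* KO were below those of wild-type and the formative sums above, and their part in the members' values was not tested. The median log2 fold change was 0.10 over members and 0.00 over all genes. *Atf3*, a stress-induced transcription factor, had 0.808 and 0.931 TPM in wild-type and 3.19 and 3.48 TPM in *Nprl2* KO (a log2 change of 1.97 with an SE of 0.35 and an edgeR adjusted p = 0.00631). *Slc7a8*, a transporter of neutral amino acids, had 1.26 and 0.705 TPM in wild-type and 1.97 and 2.48 TPM in the KO (a log2 change of 1.19 with an SE of 0.30 and an edgeR adjusted p = 0.0347). *Prickle1* had 3.9 and 3.6 TPM in wild-type and 5.43 and 7.5 TPM in the KO (a log2 change of 0.83 with an SE of 0.20 and an edgeR adjusted p = 0.0302). The libraries of the genotypes did not overlap in any of these genes. *Sfn* had 54.7 and 71.6 TPM in wild-type and 100.1 and 112 TPM in the KO (a log2 change of 0.78 with an SE of 0.13 and an edgeR adjusted p = 0.00695), and *Csrp1* had 58 and 66.5 TPM in wild-type and 81.6 and 97.6 TPM in the KO (a log2 change of 0.56 with an SE of 0.11 and an edgeR adjusted p = 0.0135). The keratins had positive values that missed the threshold in this comparison: *Krt18* 1.58 ± 0.34 (SE, adjusted p = 0.0541), *Krt19* 1.91 ± 0.63 (adjusted p = 0.111) and *Krt8* 1.14 ± 0.42 (adjusted p = 0.24) as log2 fold changes.

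In *Tsc2* KO cells 16 members were called higher and 22 lower, beside a background of 15% of genes higher and 14.2% lower. The share of members called higher was thus close to that of all genes, and the share called lower was 19.5% of 113. DESeq2 called 11 of 132 members higher and 11 lower, beside 1347 and 1397 of all genes, so no excess of lower members is read. The counts below with a library left out have no share over all genes beside them. The median log2 fold change was -0.26 over members and 0.01 over all genes. Without the second *Tsc2* KO library the counts were 10 higher and 11 lower and the median -0.12, and the lone library was then assumed to vary like the other groups. Without the first wild-type library they were 9 and 14, and without the second wild-type library 11 members were lower. Of the 38 members called, 13 were called in every fit with a library left out. The naive marker sums lay above and the formative sums below those of wild-type, and their part in the members' values was not tested.

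Among the members lower in *Tsc2* KO, *Kctd12b* had 0.839 and 0.905 TPM in wild-type and 0.186 and 0.114 TPM in the KO (a log2 change of -2.55 with an SE of 0.46 and an edgeR adjusted p = 0.00138). *Kcnj3*, the potassium channel, had 2.86 and 2.33 TPM in wild-type and 0.683 and 0.919 TPM in the KO (a log2 change of -1.73 with an SE of 0.28 and an edgeR adjusted p = 0.00067). *Nnat* had 13.2 and 12.8 TPM in wild-type and 5.3 and 4.51 TPM in the KO (a log2 change of -1.43 with an SE of 0.23 and an edgeR adjusted p = 0.000637). The libraries of the 2 genotypes were apart in each, and the neural RNA-binding gene *Msi1* showed the same (9.89 and 7.17 against 3.98 and 4.73 TPM, log2 fold change -1.02). Nuclear factors, a group made after the values were seen with 17 members tested, gave 7 of the 22. These were *Hif3a*, *Lmx1b*, *Zfp362*, *Zfp629*, *Bend6*, *Tgfb1i1* and *Greb1l*, with log2 fold changes from -1.44 (*Lmx1b*) to -0.88 (*Greb1l*). Of these, the calls of *Hif3a* and *Greb1l* alone held with each library left out in turn. Without the second *Tsc2* KO library the log2 change of *Tgfb1i1* was -0.44. *Hif3a* was at 4.63 and 3.17 TPM in wild-type and 1.77 and 1.5 TPM in the KO (a log2 change of -1.31 with an SE of 0.20 and an edgeR adjusted p = 0.000434). Others included *Vat1l* (-2.18), *Ppp4r4* (-1.89), *Cldn3* (-1.38), *Gpr153* (-1.25), *Tmem63a* (-1.04), *Calcr* (-1.01), *Prickle1* (-0.95), *Sfn* (-0.80), *Adcy6* (-0.70) and *Pls3* (-0.29). With any 1 library left out, *Calcr* was called in 0 of 6 fits, *Pls3* and *Tgfb1i1* in 1 each, and *Msi1* and *Prickle1* in 5 each.

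Members higher in *Tsc2* KO came from several role groups. *Nefm* had 2.38 and 3.49 TPM in wild-type and 10.9 and 17.6 TPM in the KO (a log2 change of 2.26 with an SE of 0.42 and an edgeR adjusted p = 0.0111). *Dhrs3* had 0.632 and 0.705 TPM in wild-type and 2.95 and 3.01 TPM in the KO (a log2 change of 2.31 with an SE of 0.45 and an edgeR adjusted p = 0.00232). *Cmtm8* had 0.183 and 0.474 TPM in wild-type and 1.8 and 1.95 TPM in the KO (a log2 change of 2.47 with an SE of 0.69 and an edgeR adjusted p = 0.0185), at low levels in all libraries. *Krt18* had 10.7 and 16.5 TPM in wild-type and 29.4 and 46.1 TPM in *Tsc2* KO (a log2 change of 1.46 with an SE of 0.34 and an edgeR adjusted p = 0.0242), while for its partner *Krt8* (19.7 and 31.3 TPM in wild-type, 44.7 and 54.2 TPM in the KO) the log2 fold change of 0.93 ± 0.42 missed the threshold (adjusted p = 0.195). *Anxa3* had 13 and 11.6 TPM in wild-type and 25.3 and 24.9 TPM in the KO (a log2 change of 0.98 with an SE of 0.15 and an edgeR adjusted p = 0.000566), with close libraries in both. *Bhlhe40*, *Dusp10*, *Fbxo36*, *Atp1b2*, *Sorbs3*, *B4galt4*, *Serp2* and *Nfasc* were called with log2 fold changes from 0.75 (*Nfasc*) to 1.80 (*Serp2*), and *Atf3* (1.64), *Slc7a8* (1.25) and *Csrp1* (0.72) complete the 16. With a library left out, *Serp2* was called in 0 of 6 fits, *Cmtm8* in 3, *Nefm* and *Slc7a8* in 4 and *Krt18* in 5. *Krt18* lost its call without the first wild-type library (log2 change 1.13, adjusted p = 0.135).

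*Acta2*, *Tagln* and *Thbs1*, with high levels in GFP+ cells, gave no call against wild-type in either KO. *Acta2* had 74.7 and 13.4 TPM in the *Tsc2* KO libraries (log2 fold change -0.71 ± 0.94 (SE), adjusted p = 0.643), *Tagln* 65.5 and 15.1 TPM (-0.73, adjusted p = 0.575) and *Thbs1* 81.9 and 18.6 TPM (-0.78, adjusted p = 0.56). Of the 34 members at 5 TPM or more in a *Tsc2* KO library, these 3 had *Tsc2* KO libraries at least 3-fold apart, with the second library low in each, and no member had in wild-type or *Nprl2* KO. Without the first *Tsc2* KO library, which left the low one alone, all 3 were called lower (log2 changes of -2.44, -2.16 and -2.23), and without the second the changes were 0.07, -0.01 and -0.06 with no call. In the second library the fibroblast markers were also low, at 34.1 TPM in sum against 124 TPM in its partner, and its part in the values was not tested. *Cnn1* (4.69 and 0.806 TPM) and *Mmp14* (18.3 and 8.06 TPM) had the same order of libraries. *Cyr61* (32 and 30.3 TPM in wild-type, 43.1 and 27.8 TPM in *Tsc2* KO) and *Actg1* (-0.01 ± 0.06 as log2 fold change) gave no call either.

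**Figure D5:**
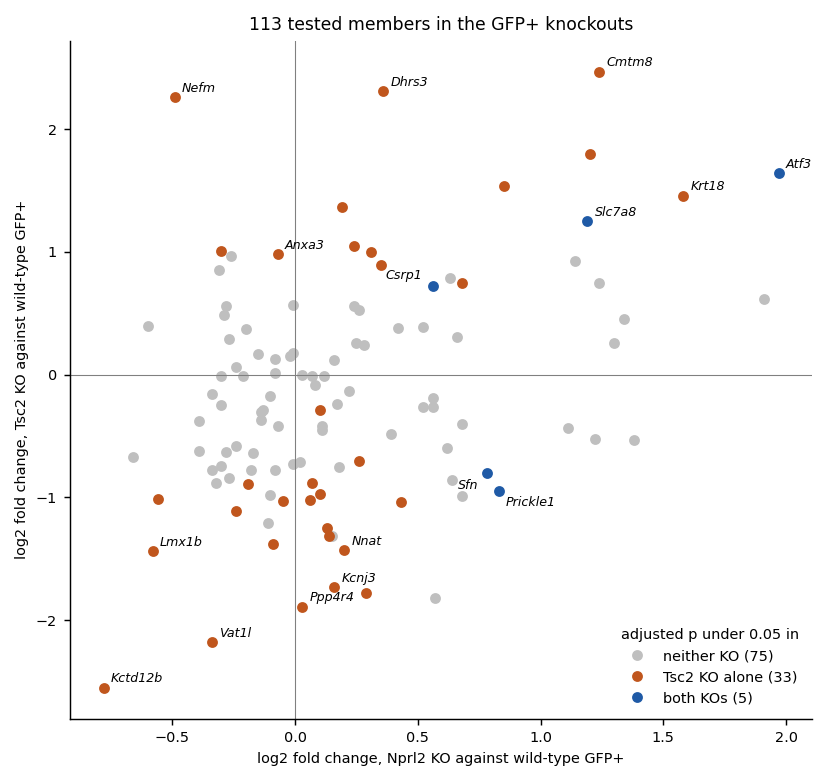
Log2 fold change of the 113 tested members in *Nprl2* KO (x axis) and *Tsc2* KO (y axis) GFP+ cells against the same wild-type libraries, each point being 1 gene, coloured by whether its adjusted p was under 0.05 in neither KO (75), in *Tsc2* KO alone (33) or in both (5). *Sfn* and *Prickle1* lie to the right of 0 and below 0, and *Atf3*, *Slc7a8* and *Csrp1* are higher in both.

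Read across the KOs, 75 of the 113 members were called in neither, 33 against wild-type in *Tsc2* KO and not in *Nprl2* KO, and 5 in both. *Csrp1*, *Atf3* and *Slc7a8* were higher in both KOs. *Sfn* and *Prickle1* were higher in *Nprl2* KO and lower in *Tsc2* KO. The direct comparison of *Tsc2* KO with *Nprl2* KO called 10 members higher and 30 lower, beside 17.5% of genes higher and 16.6% lower, with a median log2 fold change of -0.35 over members and -0.01 over all genes. Without the second *Nprl2* KO library 6 members were higher and the median was -0.23, and without the second *Tsc2* KO library 6 and -0.24. *Sfn* was at 100.1 and 112 TPM in *Nprl2* KO and 34.6 and 39.4 TPM in *Tsc2* KO (a log2 change of -1.58 with an SE of 0.13 and an edgeR adjusted p = 1.31e-05). *Prickle1* was at 5.43 and 7.5 TPM in *Nprl2* KO and 1.69 and 2.27 TPM in *Tsc2* KO (a log2 change of -1.78 with an SE of 0.21 and an edgeR adjusted p = 5.68e-05). Some members were called lower in this comparison but in neither KO against wild-type. *Pdgfb* had 1.47 and 1.92 TPM with *Nprl2* lost and 0.414 and 0.525 TPM with *Tsc2* lost (a log2 change of -1.91 with an SE of 0.41 and an edgeR adjusted p = 0.00353), and *Jun* 6.48 and 8.95 TPM and 4.82 and 4.41 TPM in that order (a log2 change of -0.82 with an SE of 0.19 and an edgeR adjusted p = 0.00503). *Phox2a*, *Rgs16*, *Pkdcc* and *Stxbp6* were also among them, with log2 fold changes of -1.74, -1.50, -1.54 and -1.67. *Acta1* was called lower as well (-1.46 ± 0.46, adjusted p = 0.0301), with the second *Tsc2* KO library at the bottom (2.32 and 0.611 TPM). Without that library its log2 change was -0.76 and the call was lost (adjusted p = 0.204), as were the calls of *Jun* (-0.74, adjusted p = 0.053) and *Pkdcc* (-1.32, adjusted p = 0.0941). Without the second *Nprl2* KO library the calls of *Acta1* (-1.29, adjusted p = 0.157), *Jun* (-0.57, adjusted p = 0.0788), *Pkdcc* (-1.22, adjusted p = 0.114) and *Stxbp6* (-1.42, adjusted p = 0.0629) were lost, without the first *Nprl2* KO library that of *Acta1* (-1.60, adjusted p = 0.0673), and without the first *Tsc2* KO library those of *Stxbp6* (-1.29, adjusted p = 0.0525) and *Phox2a* (-1.28, adjusted p = 0.0723). Of the 40 members called, 18, with *Sfn* and *Prickle1* among them, were called in every such fit. The largest difference upward was that of *Nefm*, with 1.13 and 2.77 TPM in *Nprl2* KO (a log2 change of 2.75 with an SE of 0.43 and an edgeR adjusted p = 0.00458). Between the KOs, epithelial and nuclear groups had the lowest medians (-0.82 and -0.86 on the log2 scale) and metabolic enzymes the highest (0.85, over 4 tested).

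For the lists, counts over all tested list genes stand beside those of their members. In the comparison of *Tsc2* KO with wild-type, 9 of 35 actin, contractile and intermediate filament genes tested were higher and 5 lower, and of their 8 members 2 (*Krt18*, *Anxa3*) were higher. Of 27 neuronal differentiation genes, 5 were higher and 14 lower, with a median log2 fold change of -0.88, and of their 4 members *Nefm* was higher and *Nnat* lower. Of 67 extracellular matrix genes, 7 were higher and 11 lower, and 0 of their 5 members was called by edgeR, at an adjusted p under 0.05. Of 29 stress and amino acid response genes, 19 were higher with loss of *Nprl2* and 16 with loss of *Tsc2*, and 0 were lower in either, and the member among them, *Atf3*, was higher in both.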

How the data were processed

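RNA-seq was measured in 18 libraries. Per the labels, kallisto 0.42.1, DESeq2 and the build mm10 are named in the submitters' processing notes. The authors deposited estimated counts per RefSeq transcript and library, with kallisto named as the tool, not normalized. The TPM values were likewise deposited, scaled for transcript length and library total and summed per gene symbol by the authors, with no scaling between libraries. Tables of the authors' own comparisons, with fold changes and p-values, were not used. The members and all gene lists were chosen with earlier results of these data known, and the role groups and the names outside the rule for named genes (list genes, the highest levels and ratios, the largest called changes, neighbours) after their values were seen.

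Members were chosen on TPM, and their time-course values carry no test. For GFP+ cells, estimated counts were summed per gene, rounded and fitted with edgeR 4.0.16 (R 4.3.3, TMM scaling, low-count filter, quasi-likelihood test, 6 libraries in 1 fit), with Benjamini-Hochberg adjustment over 13677 genes at 0.05. The test was tested on simulated data first. Labels do not say whether replicates are separate cultures, so p-values measure the spread between these libraries, which may be technical. DESeq2 1.42.0, limma 3.58.1 on log2(TPM + 1), other filters and scalings, a replicate block and leaving out each library were alternatives. A count of 3 corresponds to a floor of 0.196 to 0.348 CPM, and floors cover counting error alone. Promoter windows came from a RefSeq table (GRCm38.p6). Some members enter the counts but are not reported by name here.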

Additional observations from a re-analysis of the deposited data

Results flagged for a closer look

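*Sfn* and *Prickle1* drew attention because they were called in opposite directions in the KOs and were also called in the direct comparison. That comparison came from the same fit of the same libraries, so it is not separate support. Between *Tsc2* KO and *Nprl2* KO GFP+ cells, which makes no use of the shared wild-type level, edgeR gave a log2 fold change of -1.58 for *Sfn* and -1.78 for *Prickle1*. Each was called higher against wild-type in one KO and lower in the other. Without the second *Nprl2* KO library the call in *Nprl2* KO was lost for both, with log2 changes of 0.68 for *Sfn* and 0.58 for *Prickle1*.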

How the results depend on the processing

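The number of members was 443 with a ratio of 1.5, 29 with a ratio of 3, 81 with a day 3 level of 10 TPM and 237 with 1 TPM. It was 108 to 189 when a time-course library was left out, with 189 without replicate 3 of day 2, 169 without replicate 2 of day 3 and 108 without replicate 1 of day 3. Members called higher in *Nprl2* KO, 5 as reported, numbered 13 with no filter on low counts, 3 by DESeq2, 3 by limma and 1 to 6 when a library was left out. For *Tsc2* KO, leaving out a library gave 9 to 16 higher, 11 to 24 lower and a median log2 fold change of -0.27 to -0.12. The lower count was 34 with no filter and 11 by DESeq2, and the median -0.08 by limma. Between the KOs, leaving out a library gave 6 to 12 higher and a median of -0.44 to -0.23, DESeq2 called 5 higher and 17 lower, and the median was -0.21 with at least 10 counts in every library and -0.18 by limma. Fewer samples or genes entered some of these fits, and otherwise the cause was not tested. With the replicate block the counts were 13 higher and 0 lower for *Nprl2* loss, 21 and 27 for *Tsc2* loss and 14 and 35 between the KOs. Same-numbered libraries correlated at 0.163, 0.132 and 0.084 in their deviations. The labels do not say whether they were handled together. Over all genes, *Nprl2* KO gave 381 higher and 501 lower by edgeR, 249 and 425 by DESeq2 and 946 and 1114 with the replicate block. *Tsc2* KO gave 2046 and 1940, 1347 and 1397, and 2659 and 2576 in the same order. Between the KOs these were 2397 and 2275, 1710 and 1601, and 2980 and 2847. Counts with no filter or with a library left out have no total over all genes beside them. A larger count there is not read as a larger effect on the members. Of 136 alternative values, 109 stayed close to the reported one (counts within 1.5 times, medians within 0.1 on the log2 scale) and 0 reversed. DESeq2 gave no adjusted p for 61, 25 and 21 of 132 members in the 3 comparisons. Groups of 2 libraries and low counts in GFP+ cells limit what could be called.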
